A study of Mus musculus with 15 samples.

Results

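Pan-leukocyte genes are genes transcribed broadly among white blood cells, though not each of them in every lineage. The group described here was 10 such genes, taken by name: Ptprc, Cd52, Cd48, Cd37, Cd53, Coro1a, Lcp1, Rac2, Laptm5 and Tyrobp. They were 10 of the 37991 gene identifiers in the table, and all 10 were among the 14258 genes with enough counts to be tested. RNA of the whole liver was sequenced from female mice in 3 groups of 5. Young WT stands for wild-type mice aged 90 days, old WT for wild-type mice aged 600 days, and old KO for mice aged 600 days with the S6K1 KO genotype, a loss of ribosomal S6 kinase 1 in the whole body rather than in a chosen cell type. WT and KO animals came from heterozygous breeding. No young KO libraries were analysed here, so genotype was compared at 600 days alone.

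Liver is built mostly of hepatocytes, and its leukocytes are resident macrophages (Kupffer cells), monocytes, dendritic cells and lymphocytes lodged in or passing through the sinusoids. CD45, the product of Ptprc, is the classical surface mark that separates blood-derived cells from all other cells of a tissue. The other members encode surface glycoproteins, tetraspanins, actin regulators, a lysosomal membrane protein and a signalling adaptor that serve motility, adhesion and receptor signalling across myeloid and lymphoid lineages. In bulk tissue a lower level of such a gene can mean fewer cells or less RNA per cell, and these libraries cannot tell the 2 apart.

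Total counts were 21801754 to 38065359 per library. A member other than Lcp1 had 21 to 746 counts in a library, and the highest count of Lcp1 was 3612. Levels are given as CPM, the usual depth-scaled count of a library, after TMM scaling. Fold changes are log2 differences with a standard error (SE) worked back from the test statistic. Adjusted p-values come from the quasi-likelihood test of edgeR over all 14258 genes, and a gene is said to have risen or fallen only where that value was under 0.05. Values per library follow the order of replicates 1, 2, 3, 4 and 6 in young WT, 1, 4, 5, 7 and 10 in old WT and 1, 2, 4, 5 and 6 in old KO. Rps6kb1, the gene of S6K1, had 38.3 ± 3.14 CPM (young WT), 38.4 ± 4.21 (old WT) and 17.0 ± 2.23 (old KO; SD, n = 5 each), a log2 difference of -1.17 (SE 0.10, adjusted p = 8.54e-06) between old KO and old WT. Hepatocyte transcripts dominated all groups, with Alb at group means of 85111 to 98460 CPM.

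RefSeq promoter windows on GRCm38.p6 were found for 7 of the 10 members, in 10 windows, while Cd52, Rac2 and Tyrobp had no entry. The 250 bases before the start site were searched on both strands for GAGGAA, the core of the element bound by the myeloid and B-cell factor PU.1, and for TGTGGT, the core bound by RUNX factors. GAGGAA was present in 23.3% of all 32851 windows and in 4 of the 10 member windows, those of Ptprc (158 bases before the start), Cd53 (39 bases), Laptm5 (38 bases, minus strand) and Cd37 (168 bases, and 23 bases on the minus strand). TGTGGT was present in 14.0% of all windows and in 2 member windows, those of Cd48 and Cd53. A match is a description of the letters and not a measured binding site. The windows of Ptprc, Cd53, Cd48 and Coro1a are printed 5′ to 3′ on the gene's strand because they end before any transcript start and show members with the first motif, with both, with the second and with neither. Capitals mark the motifs. They lie at chr1:138175306-138175555 (minus strand), chr3:106790150-106790399 (minus), chr1:171681742-171681991 (plus) and chr7:126704817-126705066 (minus).
Ptprc: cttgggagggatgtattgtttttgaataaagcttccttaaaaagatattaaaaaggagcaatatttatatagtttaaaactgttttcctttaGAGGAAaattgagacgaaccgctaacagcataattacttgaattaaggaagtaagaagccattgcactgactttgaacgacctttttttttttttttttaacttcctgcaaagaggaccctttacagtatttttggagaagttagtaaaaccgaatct
Cd53: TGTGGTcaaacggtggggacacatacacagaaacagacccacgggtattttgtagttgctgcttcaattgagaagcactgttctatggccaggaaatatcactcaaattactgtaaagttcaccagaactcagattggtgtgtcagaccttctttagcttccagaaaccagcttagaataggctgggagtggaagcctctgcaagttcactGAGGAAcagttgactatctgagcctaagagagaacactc
Cd48: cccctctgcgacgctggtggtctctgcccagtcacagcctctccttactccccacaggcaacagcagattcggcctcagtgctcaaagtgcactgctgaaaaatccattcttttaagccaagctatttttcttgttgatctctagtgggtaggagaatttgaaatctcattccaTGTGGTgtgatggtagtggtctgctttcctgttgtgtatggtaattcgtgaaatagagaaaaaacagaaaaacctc
Coro1a: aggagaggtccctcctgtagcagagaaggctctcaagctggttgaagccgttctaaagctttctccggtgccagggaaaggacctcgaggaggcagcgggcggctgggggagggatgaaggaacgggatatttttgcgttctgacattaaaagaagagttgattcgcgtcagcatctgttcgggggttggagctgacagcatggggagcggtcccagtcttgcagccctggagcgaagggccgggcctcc

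Per kilobase of exon, Tyrobp was the most abundant member in old WT liver at 24.3 CPM per kb, followed by Lcp1 at 9.87, Cd52 at 6.55 and Laptm5 at 5.78. Cd53, Rac2, Cd48 and Ptprc lay close together at 3.67 to 3.12 CPM per kb, Coro1a was at 2.36 and Cd37 was lowest at 0.89. In young WT liver Tyrobp was again first at 15.7 CPM per kb and Cd37 again last at 0.621. The length is that of all annotated exons of a gene joined, 564 bases for Tyrobp, 3538 for Cd37 and 9504 for Lcp1, and the order depends on it. In plain CPM Lcp1 was highest in old WT, at a mean of 93.8 against 13.7 for Tyrobp.

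Libraries of the same group differed in a way the members shared. The summed level of the 9 members other than Lcp1 was 43.7 and 39.1 CPM in young WT 1 and 2, against 69.8 to 81.8 in the other young WT libraries. Among old WT libraries it was 71.5 CPM in old WT 5 and 96.0 to 107 in the others. Old KO libraries spread from 37.7 CPM in old KO 6 to 66.0 in old KO 1. Young WT 2 had the lowest level in its group for 8 of the 10 members, old WT 5 for 8 and old KO 6 for 7, and old KO 5 was among the highest 2 of its group for all 10. Results are therefore given with the calls that were lost when a library was left out.

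**Figure D1:**
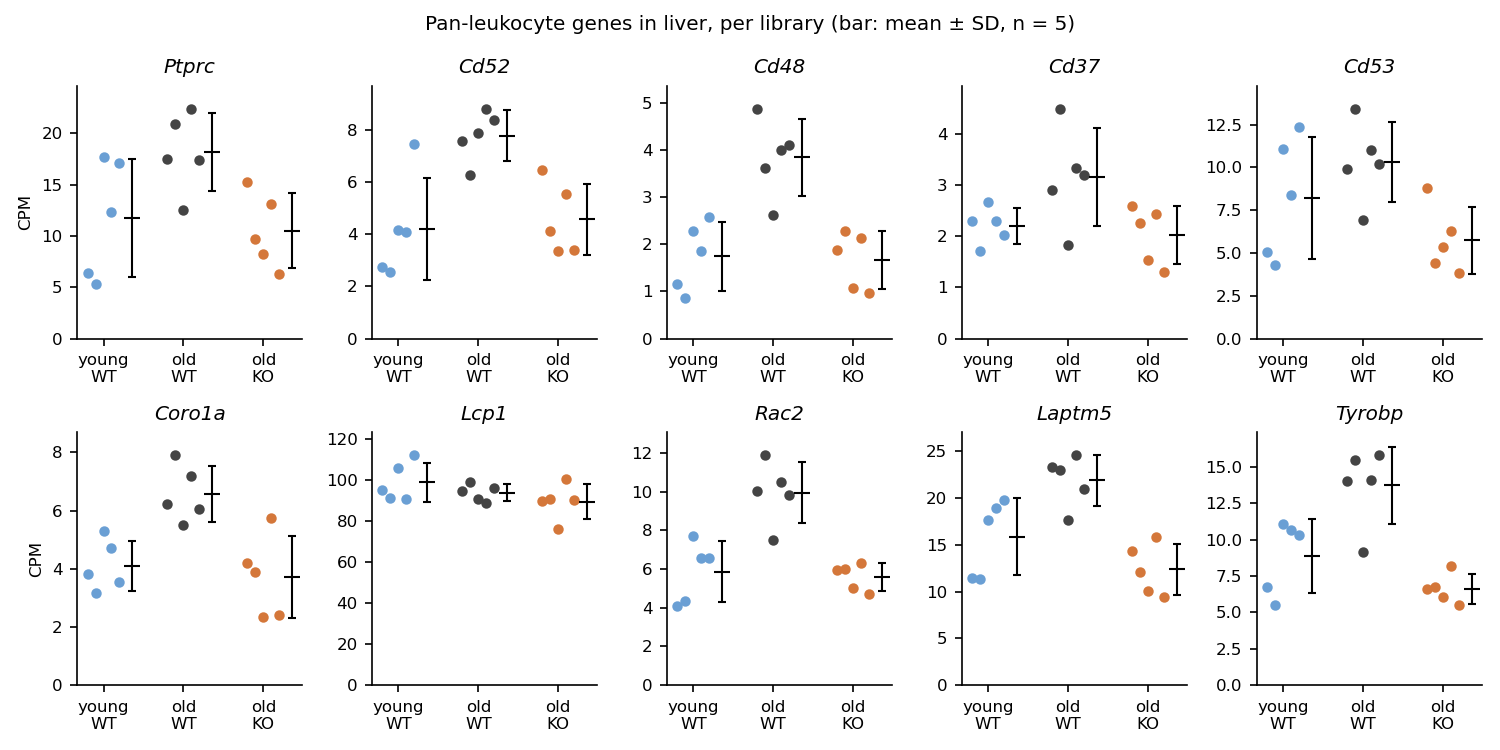
CPM (y axis, linear, from 0) of each of the 10 pan-leukocyte genes in the 5 young WT (blue), 5 old WT (grey) and 5 old KO (orange) livers, with mean ± SD beside the points. In 9 panels the old WT points sit highest on average, while Lcp1 stays between 76.3 and 112 CPM in all 15 libraries.

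The comparison of old WT with young WT asked how the level of leukocyte transcripts changed with age. Cd48, Cd52, Rac2, Coro1a and Tyrobp rose, by 1.55-fold (Tyrobp) to 2.22-fold (Cd48). None of the 10 fell, and 9 had a positive log2 fold change. The 5 members that rose were 5 of 10, and 9.92% of all genes tested rose. At an unadjusted p under 0.05 the number was 7, against 17.2% of all genes. The median log2 fold change of the members was 0.63, and that of all genes was 0.01.

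The comparison of old KO with old WT asked whether loss of S6K1 changed these levels in old liver. All 10 members had a negative log2 fold change, with a median of -0.82 against 0.00 for all genes. Tyrobp and Rac2 fell, to 0.483 and 0.563 of the old WT level. These 2 of 10 stand beside 0.421% of all genes that fell. DESeq2 called 5 members lower (Cd48, Coro1a, Rac2, Laptm5 and Tyrobp) and limma voom called 0. The 0.421% is the share in edgeR, and no share over all genes is given here for DESeq2 or limma voom. At an unadjusted p under 0.05 the number of lower members was 9, every member except Lcp1, against 6.80% of all genes. The age and the genotype comparison share the old WT libraries, so a high old WT level enters both with opposite sign.

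The comparison of old KO with young WT does not use the old WT libraries. None of the 10 members passed the test there, while 12.0% of all genes were called higher and 11.3% lower. DESeq2 and limma voom also called 0. Tyrobp alone was lower at an unadjusted p under 0.05 in the edgeR fit across all genes (adjusted p = 0.135), where 18.2% of all genes were. The log2 fold changes ran from -0.51 (SE 0.29) for Cd53 to 0.14 (SE 0.26) for Cd52. SEs of 0.18 to 0.31 for the 9 members other than Lcp1 leave room for differences of either sign, so the levels are not shown to be equal.

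**Figure D2:**
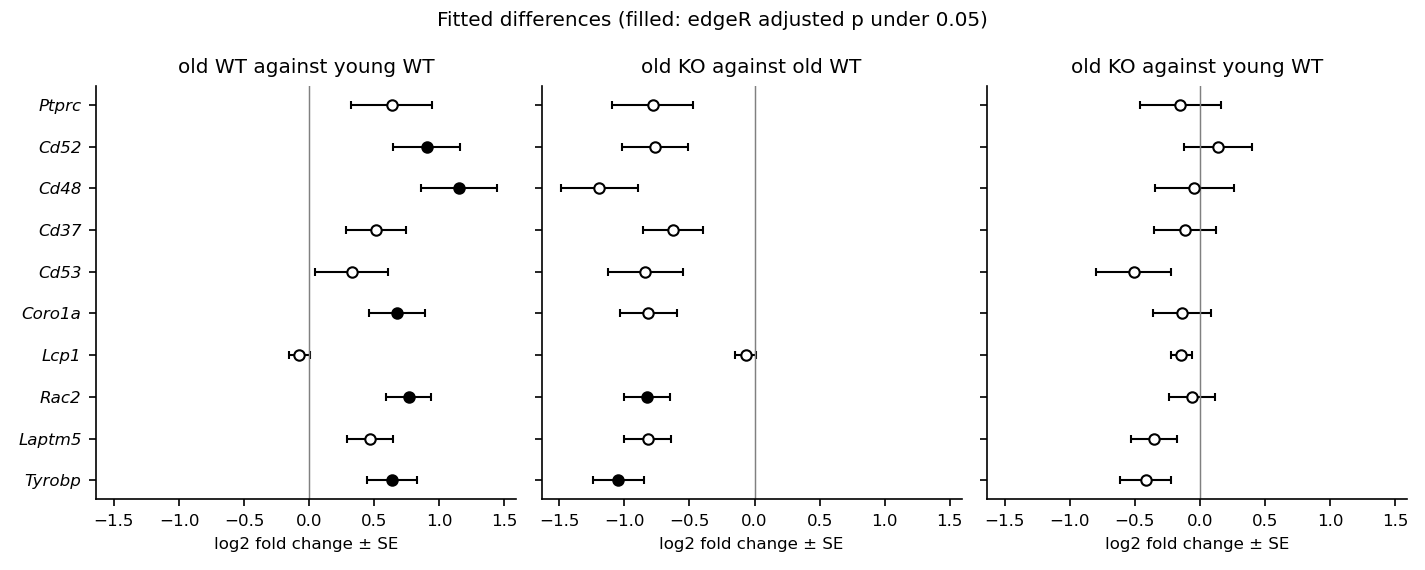
Fitted log2 fold change (x axis) ± SE of each of the 10 genes in the 3 comparisons, with filled points for an edgeR adjusted p under 0.05. Filled points are 5 for age, 2 for genotype and 0 for old KO against young WT, and Lcp1 lies near 0 in each panel.

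Among the surface receptors, Ptprc encodes CD45, the transmembrane phosphatase that sets the threshold of antigen receptor signalling. Its level was 6.40, 5.28, 17.7, 12.3 and 17.1 CPM in young WT, 17.5, 20.9, 12.5, 22.4 and 17.4 CPM in old WT and 15.2, 9.73, 8.22, 13.1 and 6.27 CPM in old KO livers. The groups overlapped, since young WT 3 was above 3 of the old WT livers and young WT 1 and 2 were as low as old KO 6. Mean levels were 11.7 ± 5.79, 18.1 ± 3.81 and 10.5 ± 3.63 CPM. Neither the log2 difference of 0.63 with age (SE 0.31, adjusted p = 0.166) nor that of -0.78 with genotype (SE 0.31, adjusted p = 0.323) passed the test.

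Cd52 encodes a very short glycoprotein anchored to the membrane of lymphocytes and monocytes. It was measured at 2.74, 2.56, 4.14, 4.10 and 7.46 CPM in young WT, 7.56, 6.26, 7.87, 8.80 and 8.38 CPM in old WT and 6.44, 4.10, 3.34, 5.53 and 3.39 CPM in old KO livers. Young WT 6 was the only young library to reach the old WT range. Cd52 rose with age by 1.87-fold (log2 0.90, SE 0.26, adjusted p = 0.0228), and without young WT 1 or young WT 2 the adjusted p was 0.0625 or 0.0575. The log2 difference with genotype was -0.77 (SE 0.26, adjusted p = 0.223). Cd52 shares 172 exon bases with Aim1l on the opposite strand, whose own counts were 768, 788 and 558 in the 3 groups (young WT, old WT, old KO), and the strand setting of the counting is not given in the sources used here.

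Cd48 encodes a ligand of the SLAM family that binds CD2 and CD244 on neighbouring leukocytes. Levels were 1.16, 0.855, 2.28, 1.87 and 2.59 CPM in young WT, 4.87, 3.63, 2.62, 4.0 and 4.12 CPM in old WT and 1.87, 2.29, 1.07, 2.14 and 0.975 CPM in old KO livers. Every old WT library was above every young WT and every old KO library, by a small margin in old WT 5. It rose with age by 2.22-fold (log2 1.15, SE 0.29, adjusted p = 0.0138), the steepest age difference of the 10, and the call was kept in all 15 fits that left out a library. The log2 difference with genotype was -1.19 (SE 0.30), the most negative of the members, at an adjusted p of 0.0881.

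The tetraspanins Cd37 and Cd53 encode membrane proteins that organise receptors and integrins in leukocyte membranes. Cd37 had 2.29, 1.71, 2.67, 2.29 and 2.03 CPM in young WT, 2.90, 4.48, 1.82, 3.33 and 3.20 CPM in old WT and 2.58, 2.25, 1.54, 2.43 and 1.30 CPM in old KO livers. Old WT 5 lay inside the young WT range, and the other old WT libraries lay above every young WT and old KO library. Its log2 difference was 0.51 (SE 0.23, adjusted p = 0.129) with age and -0.63 (SE 0.23, adjusted p = 0.281) with genotype. For Cd53 the levels were 5.08, 4.27, 11.1, 8.38 and 12.4 CPM in young WT, 9.90, 13.4, 6.92, 11 and 10.2 CPM in old WT and 8.80, 4.43, 5.35, 6.29 and 3.81 CPM in old KO livers. Young and old WT libraries covered much the same range, and the log2 difference with age was 0.33 (SE 0.28, adjusted p = 0.442). With genotype it was -0.84 (SE 0.29, adjusted p = 0.235), and 4 of the 5 old KO libraries were below the lowest old WT library. Neither tetraspanin passed the test in any comparison.

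Among the actin regulators, Coro1a encodes coronin 1A, which binds F-actin and is needed for T cell survival and migration. Its values were 3.82, 3.17, 5.28, 4.70 and 3.54 CPM in young WT, 6.22, 7.89, 5.49, 7.18 and 6.06 CPM in old WT and 4.19, 3.89, 2.36, 5.74 and 2.41 CPM in old KO livers. Every old WT library was above every young WT library, and old KO 5 alone reached into the old WT range. Coro1a rose with age by 1.60-fold (log2 0.68, SE 0.22, adjusted p = 0.0389). The call held in 2 of the 10 fits that left out a young WT or old WT library (young WT 3 and old WT 5), and the highest adjusted p among them was 0.0943. With genotype the log2 difference was -0.82 (SE 0.22, adjusted p = 0.118).

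Rac2 encodes the blood-cell Rac GTPase that drives the phagocyte oxidase and directed migration. Libraries had 4.08, 4.33, 7.72, 6.60 and 6.60 CPM in young WT, 10.03, 11.9, 7.49, 10.5 and 9.85 CPM in old WT and 5.95, 5.99, 5.01, 6.33 and 4.69 CPM in old KO livers. All old KO livers were below all old WT livers, and young WT 3 was just above old WT 5. With age Rac2 rose by 1.70-fold (log2 0.76, SE 0.17, adjusted p = 0.00704), and the call was kept in all 15 fits without a library. It fell with genotype by 0.83 on the log2 scale (SE 0.17, adjusted p = 0.0459). The genotype call held in 1 of the 10 fits that left out an old WT or old KO library, the fit without old WT 5, and the highest adjusted p was 0.132.

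Lcp1 encodes L-plastin, the actin-bundling plastin of leukocytes. It had 95.1, 91.2, 106, 90.5 and 112 CPM in young WT, 94.4, 99.0, 90.6, 88.7 and 96.1 CPM in old WT and 89.6, 90.6, 76.3, 100.3 and 90.1 CPM in old KO livers. The 3 groups covered one another, and the highest library was 1.47 times the lowest, where the same ratio was 2.61 (Laptm5) to 5.70 (Cd48) for the other members. The log2 difference was -0.08 (SE 0.08, adjusted p = 0.543) with age and -0.07 (SE 0.08, adjusted p = 0.812) with genotype. Lcp1 gave 45.6% to 55.9% of the summed CPM of the 10 members in old WT livers, 56.4% to 70.0% in young WT and 57.6% to 70.5% in old KO livers. On the log2 CPM scale its distance from the mean of the other 9 shifted by -0.78 from young WT to old WT and by 0.80 from old WT to old KO, while that of any other member shifted by -0.25 to 0.61 and by -0.48 to 0.20. Gm15628 and Gm15629, annotated on the opposite strand with 311 and 219 exon bases in common with Lcp1, had at most 4 and 1 counts in a library.

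Laptm5 encodes a lysosomal membrane protein of blood cells that promotes the degradation of antigen receptor chains. The libraries held 11.4, 11.4, 17.7, 18.9 and 19.8 CPM in young WT, 23.3, 23.0, 17.6, 24.6 and 20.9 CPM in old WT and 14.4, 12.1, 10.1, 15.8 and 9.42 CPM in old KO livers. Old KO and old WT did not overlap, while old WT 5 lay inside the young WT range. Laptm5 just missed the threshold with genotype, at a log2 difference of -0.82 (SE 0.18, adjusted p = 0.0506). The adjusted p was 0.00232 in DESeq2 and 0.0694 in limma voom, and in edgeR it was under 0.05 in 1 of the 10 fits that left out an old WT or old KO library, with 0.145 as the highest value. With age the log2 difference was 0.47 (SE 0.18, adjusted p = 0.0721).

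Tyrobp encodes DAP12, the adaptor through which activating receptors of macrophages and NK cells, TREM2 among them, signal to the kinase SYK. Its levels were 6.74, 5.53, 11.1, 10.7 and 10.3 CPM in young WT, 14.1, 15.5, 9.18, 14.1 and 15.8 CPM in old WT and 6.63, 6.72, 6.08, 8.22 and 5.48 CPM in old KO livers. Old WT 5 stood below the other old WT livers and inside the young WT range, and was still above every old KO liver. Tyrobp rose with age by 1.55-fold (log2 0.63, SE 0.19, adjusted p = 0.0315) and fell with genotype by 1.05 on the log2 scale (SE 0.20, adjusted p = 0.029). The age call held in 5 and the genotype call in 2 of the 10 fits that left out a library of the groups compared, the latter without old WT 5 and without old KO 1. The highest adjusted p in those fits was 0.0827 for age and 0.0907 for genotype. The age call was also lost when only the 10 libraries compared were fitted (edgeR adjusted p = 0.06), and the genotype call in limma voom (adjusted p = 0.0556).

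Cd48, Rac2, Laptm5 and Tyrobp were lower in every old KO than in every old WT library, 4 of 10 members where 2.08% of all genes were. Cd48 and Coro1a were higher in every old WT than in every young WT library, 2 of 10 where 5.78% of all genes were.

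**Figure D3:**
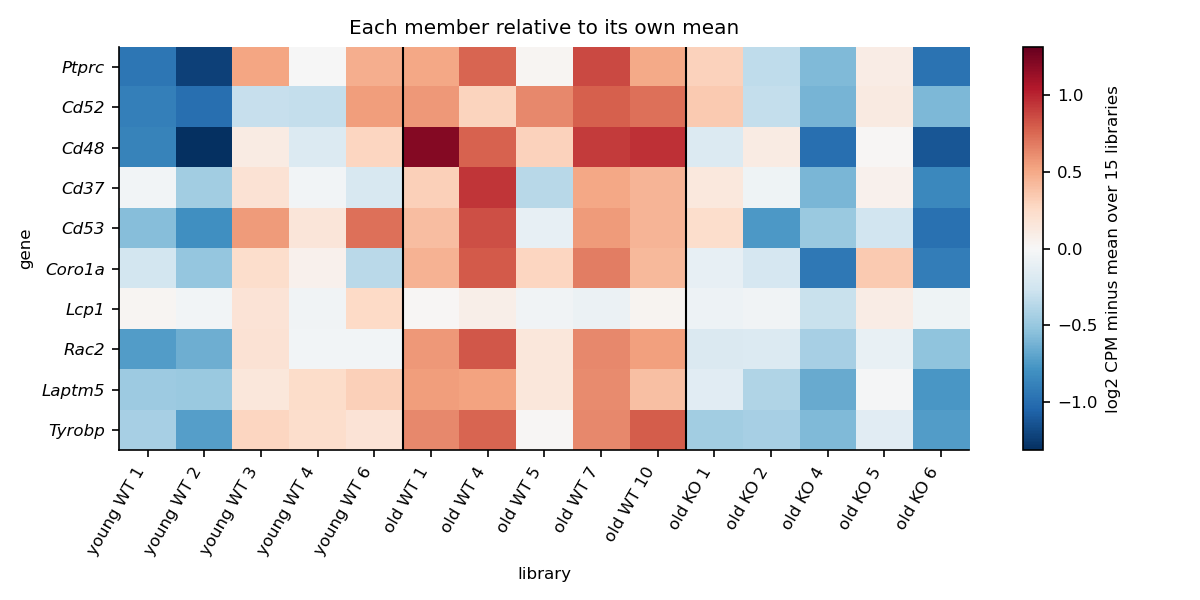
Log2 CPM of each of the 10 genes (rows) in each of the 15 libraries (columns) minus the gene's mean over all libraries, with red above and blue below that mean. Young WT 1 and 2 and old KO 4 and 6 are blue in most rows, old WT libraries other than old WT 5 are red in most rows, and the Lcp1 row is pale throughout.

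The members other than Lcp1 moved together across the 15 libraries. Pearson's r of a member with the mean of the other 9 standardised members was 0.804 (Cd52) to 0.962 (Laptm5), with Spearman's rho of 0.757 to 0.932, and for Lcp1 r was 0.417 with a rho of 0.386. Leaving out the 2 libraries farthest from the median gave r of 0.724 to 0.953 for the 9 and 0.415 for Lcp1. Deviations from the group means correlated at 0.703 to 0.948 for the 9 and at 0.606 for Lcp1, so the shared movement was present within groups too. These are descriptions over libraries that share scaling, groups and depth, and no p-value is attached. Of all other tested genes, the 10 nearest to the mean of the members were Itgb2 (r = 0.987), which encodes the common beta chain of the leukocyte integrins, Tbc1d9 (0.969), Ctss (0.968), Plek (0.962), Nckap1l (0.962), Dock2 (0.96), Cybb (0.957), Rasgrp1 (0.957), Sash3 (0.956) and Axl (0.955). Their log2 fold changes were 0.40 (Ctss) to 0.85 (Tbc1d9) with age and -1.10 (Cybb) to -0.75 (Rasgrp1) with genotype. These genes were picked by likeness to the members over all 15 libraries, group differences included. The direction of their fold changes therefore follows from the choice and is no separate result.

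Further genes used across leukocytes were read from a list of 57, of which 54 were tested. With age 19 rose and 0 fell, all 54 had a positive log2 fold change and the median was 0.58. With genotype 1 fell and 0 rose in edgeR (17 fell in DESeq2 and 0 in limma voom), 36 were lower at an unadjusted p under 0.05 in edgeR, 53 of 54 had a negative value and the median was -0.68. In old KO against young WT 3 were higher and 3 lower, where 12.0% and 11.3% of all genes were, with a median of -0.12. Over all 14258 genes, 1415 (9.92%) rose and 1270 fell with age, and 16 rose and 60 (0.421%) fell with genotype. At an unadjusted p under 0.05 in edgeR, 17.2% were higher with age and 6.80% lower with genotype. These shares are those of edgeR and stand beside the edgeR counts of the lists here and below. The list counts in DESeq2 and limma voom have no such share beside them.

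Among the partners of Tyrobp, Trem2, a lipid-sensing macrophage receptor, rose with age (log2 0.76, SE 0.14, adjusted p = 0.00252), as did Fcer1g, a related adaptor chain (0.70, SE 0.19, adjusted p = 0.0204). Their genotype values were -0.23 (adjusted p = 0.563) and -0.64 (adjusted p = 0.172), and Trem2 was higher in old KO than in young WT (0.54, adjusted p = 0.0139). Of the 6 SLAM family genes and partners of Cd48, 3 rose with age. Cd244, the receptor of CD48 on NK and T cells, went from 0.195 ± 0.0661 to 0.697 ± 0.155 CPM (log2 1.81, adjusted p = 0.00423), Slamf7 changed by 1.39 (adjusted p = 0.0121) and Ly9 by 0.80 (adjusted p = 0.0347).

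The list of actin and motility genes held 16 tested genes, of which 7 rose with age and 0 passed with genotype in edgeR, where 13 were lower at an unadjusted p under 0.05. Hcls1, a cortactin-like protein of blood cells, changed by 0.79 (adjusted p = 0.00971) with age, Myo1f by 1.09 (adjusted p = 0.0147), Myo1g by 0.82 (adjusted p = 0.0183) and Plek by 0.85 (adjusted p = 0.0449), and their genotype values of -0.68 (Hcls1) to -1.0 (Plek) did not pass. Cyba and Ncf4, subunits of the phagocyte oxidase that Rac2 activates, were 2 of 5 such genes that rose, by 0.64 (adjusted p = 0.0162) and 0.91 (adjusted p = 0.0204). The integrin chain Itgax rose by 1.67 (adjusted p = 0.00154) and the selectin ligand Selplg by 0.76 (adjusted p = 0.016), the 2 of 9 adhesion genes that did. Ptpn6 and Lyn, a phosphatase and a kinase of immune receptor signalling, rose by 0.26 (adjusted p = 0.0481) and 0.27 (adjusted p = 0.0414) and were 2 of 9.

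Of 5 transcription factor genes, Spi1, which encodes PU.1, was the 1 gene of the 54 tested that fell with genotype. Its mean was 3.61 ± 1.18 CPM in young WT, 4.86 ± 1.00 in old WT and 2.07 ± 0.476 in old KO livers, a log2 difference of -1.22 (SE 0.23, adjusted p = 0.029) with genotype and of -0.79 (adjusted p = 0.0213) between old KO and young WT. Runx3, a RUNX factor of T and NK cells, rose with age by 1.02 (adjusted p = 0.0484) from 0.287 ± 0.0494 CPM. The motifs shown above are a property of the promoter sequence alone and were not tested against these levels.

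Paralogs of the members were read beside them, and which cells use each paralog was not tested. Coro2a, Pls1, Rac3 and Ptpre were low, at 0.16 to 0.6 CPM per kb in the 3 groups. Ptpre had a genotype value of -0.50 (adjusted p = 0.171). Of 21 paralogs 7 rose with age and none passed with genotype, in edgeR, DESeq2 or limma voom, while 3 were lower and 1 higher at an unadjusted p under 0.05 in edgeR. Their median log2 fold change was 0.23 with age and -0.08 with genotype. Rac1, the Rac gene of most tissues, was at 46.3 CPM per kb in old WT liver where Rac2 was at 3.28, and changed by 0.05 (adjusted p = 0.637) and 0.08 (adjusted p = 0.653). Pls3, the plastin of non-blood cells, rose with age by 0.49 (SE 0.11, adjusted p = 0.00655) and was at 27.0 CPM per kb in old WT, while Lcp1 was at 9.87. Laptm4a, the broadly used relative of Laptm5, rose by 0.23 (adjusted p = 0.0159) with age and gave an adjusted p of 0.994 with genotype. Among tetraspanins Cd63, Tspan4 and Cd151 rose with age by 1.09 (adjusted p = 0.00537), 0.57 (adjusted p = 0.00666) and 0.28 (adjusted p = 0.0271). Rhog rose by 0.42 (adjusted p = 0.012) and Ptpre by 0.44 (adjusted p = 0.0499). The remaining 13 paralogs (Coro1b, Coro1c, Coro2a, Coro7, Rac3, Cdc42, Pls1, Laptm4b, Cd9, Cd81, Cd82, Ptpra and Ptprj) did not pass with age or genotype, at values from -1.01 (Pls1) to 0.29 (Rac3) with age and from -0.44 (Coro2a) to 0.43 (Pls1) with genotype.

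Markers of single leukocyte classes were set beside the members because several classes can express a member. For Kupffer cells and macrophages 7 of 12 markers fell with genotype in edgeR (9 in DESeq2, 2 in limma voom), with a median log2 fold change of -1.09. With age 0 of the 12 passed in edgeR, although 6 were higher at an unadjusted p under 0.05, 4 rose in DESeq2 and 3 in limma voom, and the median was 0.44. Their summed level was 250 to 548 CPM (young WT), 354 to 749 CPM (old WT) and 187 to 310 CPM (old KO), so that every old KO liver was below every old WT liver. Cd5l and Clec4f, genes of resident Kupffer cells, fell with genotype by 1.47 (adjusted p = 0.0247) and 1.26 (adjusted p = 0.0292) on the log2 scale and were also below the young WT level in old KO livers (-1.11, adjusted p = 0.00666, and -1.12, adjusted p = 0.00377). Mpeg1 changed by -0.79 (adjusted p = 0.281). The part of this class in the genotype values of Tyrobp and Rac2 was not tested.

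Monocyte markers rose with age in 5 of 6 cases, among them Lyz2 (0.94, adjusted p = 0.0179) and Ms4a6c (0.91, adjusted p = 0.0336), and their summed level was 28.9 to 59.9 CPM (young WT), 61.6 to 104 CPM (old WT) and 33.5 to 68.2 CPM (old KO). Cd14 was the exception, at -0.28 (adjusted p = 0.274) with age, and was the 1 of 6 that fell with genotype (by 1.04, adjusted p = 0.0247). Lyz2 gave most of the sum, at means of 71.1 (old WT) and 42.1 CPM (old KO). The others that rose were Ly6c2, Ccr2 and Cx3cr1, named after their values were seen, at group means of 0.13 to 3.06 CPM. Their genotype values were -0.05, -0.37 and 0.12 (lowest adjusted p 0.754). In old KO against young WT, Ly6c2 (1.43, adjusted p = 0.0198) and Cx3cr1 (1.86, adjusted p = 0.00489) were higher. Cd14 was lower there (-1.33, adjusted p = 0.000254). Of T cell markers 2 of 9 rose with age in edgeR (0 in limma voom). Of the 3 most abundant, Cd8a rose by 2.0 (adjusted p = 0.0185), while Cd3g was at 1.24 (adjusted p = 0.0836) and Il7r at 0.74 (adjusted p = 0.269). Of NK and cytotoxic cell markers 3 of 6 rose (2 in limma voom). The most abundant, Klrk1, was at 0.44 (adjusted p = 0.359), and Gzmb rose by 1.52 (adjusted p = 0.0107) and Nkg7 by 1.60 (adjusted p = 0.0218). Of B cell markers 2 of 7 rose (0 in limma voom), and the 3 most abundant did not pass, with Cd22 and Cd79b at 0.71 (adjusted p = 0.169 and 0.116) and Cd79a at 0.65 (adjusted p = 0.241). The other markers behind these counts were Cd3e, Prf1, Ms4a1 and Fcrla, named here after their values were seen. Over the 22 lymphoid markers edgeR called 7 higher with age, DESeq2 8 and limma voom 2. None of the 22 passed with genotype in edgeR, DESeq2 or limma voom, while 5 were lower at an unadjusted p under 0.05 in edgeR, all 22 had a negative value and the class medians were -0.76, -0.66 and -0.66. Of 3 plasma cell markers 2 rose with age and none passed with genotype, and Jchain rose with age by 4.07 (adjusted p = 0.00134) and was at 12.4 ± 9.78 CPM (old WT) and 26.6 ± 22.7 CPM (old KO). Of 5 dendritic cell markers 1 fell with age in edgeR, Zbtb46, while DESeq2 and limma voom each called 1 lower and 1 higher. With genotype 0 of the 5 passed in edgeR, DESeq2 or limma voom, and 0 had an unadjusted p under 0.05 in edgeR. The same counts of 0 held for the 3 tested neutrophil markers (S100a8, S100a9 and Cxcr2) with both age and genotype. The summed neutrophil level was at most 11.2 CPM in any library. The part of each class in the age values of the members was not tested.

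**Figure D4:**
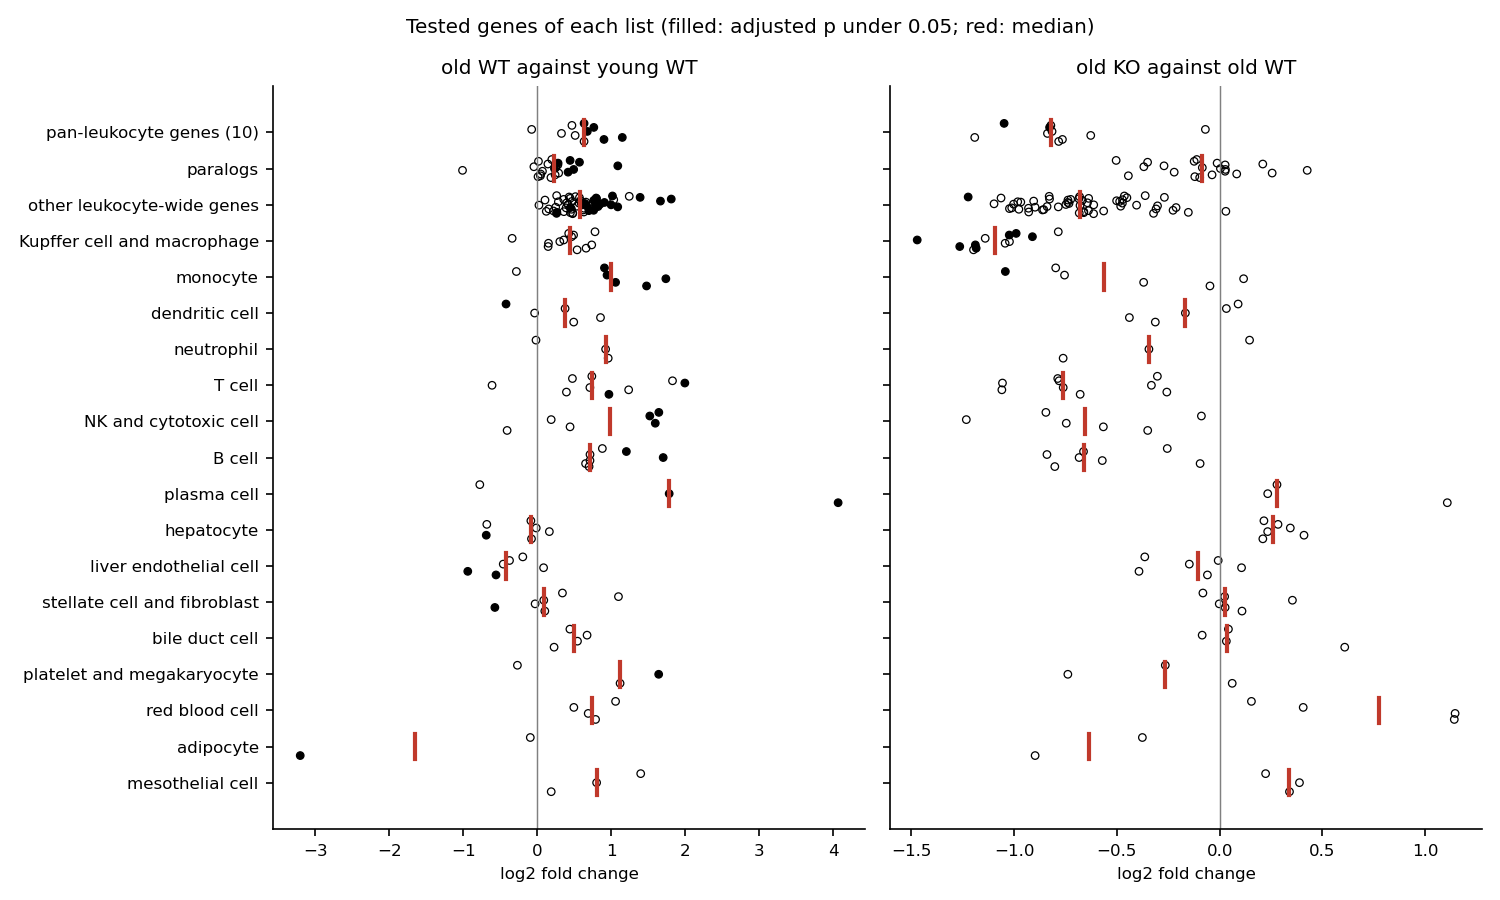
Log2 fold change (x axis) of every tested gene of each list (rows) for age (left) and genotype (right), with filled circles for an adjusted p under 0.05 and a red bar at the list median. The medians of the members and of the further leukocyte-wide genes lie right of 0 with age (0.63 and 0.58) and left of 0 with genotype (-0.82 and -0.68). With age 1 member lies left of 0, and with genotype 1 further leukocyte-wide gene lies right of 0. The Kupffer cell list has the most filled circles in the genotype panel, and hepatocyte genes (medians -0.08 and 0.26) do not share the course of the members.

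Markers of other liver cells were read in the same way. Of 6 hepatocyte markers 1 fell with age, Apoa1, and none passed with genotype, with medians of -0.08 and 0.26 and summed levels of 83869 to 128259 CPM (old WT) and 101323 to 134845 CPM (old KO). Of 6 endothelial markers 2 fell with age (median -0.42) and 0 passed with genotype (median -0.10). Red blood cell markers summed to 38.1 to 87.3 CPM (young WT), 65.5 to 134 CPM (old WT) and 87.7 to 319 CPM (old KO), with 0 of 4 called for age or genotype in edgeR, while 3 of 4 were called higher in old KO than in young WT livers. Of the stellate cell, bile duct, platelet, adipocyte and mesothelial markers 3 passed with age (Reln and Cidec lower, Ppbp higher) and 0 with genotype. DESeq2 and limma voom also called 0 genes of these other cells with genotype, and in edgeR 1 hepatocyte and 2 red blood cell markers were higher at an unadjusted p under 0.05. Cidec of the adipocyte list had a mean of 45.8 CPM in young WT, where Adipoq had 0.031 and Fabp4 5.0. The cells behind its level were not tested. No marker list had a gene with 0 counts in all 15 libraries. The share of these cells in the members' values was not tested.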

How the data were processed

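Whole livers were flash frozen, RNA was extracted with Trizol, and stranded poly(A) libraries were sequenced as single-end reads. The authors demultiplexed with CASAVA, mapped to mm9 with TopHat2 (2.0.11, per the labels) and used HTSeq to assign reads to genes. What they deposited are raw counts per gene, neither normalized nor pooled. Annotation and strand setting are not given in the sources used here. Groups and replicate numbers came from the sample titles, and each of the 15 columns matched 1 title.

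Positions came from GENCODE M1 (NCBIM37, the mm9 build), and list genes were matched by symbol (180 of 185 entries) or synonym (5). Counts were scaled by TMM and filtered with filterByExpr, and 14258 genes were fitted over all 15 libraries with the quasi-likelihood test of edgeR 4.0.16 (R 4.3.3). P-values were adjusted by Benjamini-Hochberg, with 0.05 as the threshold. The SE of an edgeR value is its absolute log2 fold change divided by the square root of the quasi-likelihood F statistic. DESeq2 1.42.0, limma voom 3.58.1, other scalings and filters, a fit of only the 10 libraries compared, a replicate block and 15 leave-out fits were the alternatives. Replicates differed beyond sampling noise in all 30 pairs (chi-square per degree of freedom 18.2 to 118). P-values set the difference between groups against the spread between these livers, estimated over all 15 libraries in the fit as reported. Members and lists were chosen with earlier results of these data known. Named were all members, their 21 paralogs, per role of the leukocyte-wide list up to 4 genes called for age or genotype with the largest genotype difference (or the 2 most abundant), Rps6kb1 and the 10 genes most correlated with the members. Of each marker class up to 3 genes could be named, the most abundant, beside those said to be named after their values were seen. For T, NK and B cells and neutrophils all 3 are named, and for the other classes some are given by their counts alone.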

Additional observations from a re-analysis of the deposited data

Results flagged for a closer look

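Tyrobp in old WT 5 stood apart from its group. Its level was 9.18 CPM, where the other 4 old WT livers had 14.1 to 15.8 CPM, and the gap to the nearest of them was 0.736 of the whole range of the group, above the critical value of 0.71 for 5 samples. In all, 30 groups were examined (10 genes in 3 groups), and about 1 in 20 such groups is picked out by chance. Old WT 5 was the lowest old WT library for 8 of the 10 members. Without it the number of members called with genotype was 3, with Laptm5 at an adjusted p of 0.0445 in edgeR, and the number called with age stayed at 5.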

How the results depend on the processing

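For age, 5 of the 10 members were called in the fit as reported and 2 to 5 without single libraries, with 2 without young WT 1 or young WT 2 (Cd48 and Rac2) and 3 without old WT 1, old WT 4 or old WT 10. From only the 10 libraries compared it was 4 (Tyrobp lost at an adjusted p of 0.06 in edgeR), and in limma voom 6 (Laptm5 gained at 0.0416). For genotype the number was 2 and 0 to 3 without single libraries, with 0 without old WT 1, 4, 7 or 10 or old KO 2, 4, 5 or 6, and 1 without young WT 4 or old KO 1. DESeq2 called 5 members for genotype (Cd48, Coro1a, Rac2, Laptm5 and Tyrobp) and limma voom 0, with 3 (Laptm5 gained) from only the 10 libraries or with no filter on low counts. For old KO against young WT the number was 0, and 0 to 1 without single libraries (Tyrobp without young WT 2). No age or genotype value of a member changed sign in any of the 8 alternatives or 15 leave-out fits.

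The further leukocyte-wide genes gave 19 calls with age (11 to 23 without single libraries). With genotype they gave 1 (0 to 5), with 17 in DESeq2, 0 in limma voom, 2 with no filter on low counts and 7 from only the 10 libraries compared. In old KO against young WT they gave 6 (2 to 6), with 2 from only the 10 libraries.

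Same-numbered samples did not deviate together (9 pairs, r from -0.153 to 0.077), which does not settle whether the numbers pair animals. Young WT 3, old WT 7 and old WT 10 carry numbers that no other library has, so they add nothing to a fit with a block for the number. With a replicate block 0 members were called with age and 0 with genotype, and of the further genes 2, 0 and 2 (old KO against young WT). Shares over all genes are not given here for this fit, the other alternatives or the leave-out fits. Whether calls were lost or gained among all genes alike is therefore not shown. Signs changed only for small differences between old KO and young WT. In that block fit Ptprc was 0.14, Cd48 0.13, Cd37 0.0063 and Rac2 0.11, and in limma voom Ptprc was 0.0037 and Cd48 0.037. Without single libraries Ptprc ran from -0.34 to 0.049, Cd48 from -0.22 to 0.13, Rac2 from -0.17 to 0.060, Cd52 from -0.021 to 0.44 and Cd37 from -0.22 to 0.0043. Counts of 21 to 746 limit the precision of members other than Lcp1.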
